A study of Homo sapiens with 6 samples.

Results

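PA-1 cells transfected with a RIPK3 plasmid were compared with PA-1 cells transfected with empty vector. PA-1 is an established human line from an ovarian teratocarcinoma. RNA sequencing gave 1 library for each condition, so the comparison rests on 2 of the 6 libraries of the series, and the other 4 (RIPK2, RIPK1 and RIPK4 plasmids, and the ligand Wnt3a) served only to place its values. Cells of both groups were kept in DMEM/F12 medium (10% FBS) and took 8 µg of plasmid for 48 h, RIPK3 in one group and the pCDNA3.1 vector in the other. The RIPK2, RIPK1 and RIPK4 cells took as much plasmid for as long, and the Wnt3a cells took 200 ng of the ligand for 16 h. Both groups compared were transfected, and no library of cells left untreated was used here. Genes with a mean of at least 1 RPKM over the 6 libraries were compared, which took 11880 of the 20494 genes listed after RIPK3 itself was set aside. RPKM is a read count scaled by the length of the transcript and the size of the library. Differences are of log2(RPKM + 1), RIPK3 minus Vector, and a gene was called higher or lower at a difference of 1 or more, that is, 2-fold on that scale. There is 1 library in each group and 1 cell line, so replicates can check none of the differences and no p-value or SD is given. Ratios are of RPKM itself, and the interval beside a ratio is an exact 95% interval of the read counts, which covers counting error only and compares libraries, not conditions. In such bulk RNA, fewer cells of a kind and less RNA per cell cannot be told apart.

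RIPK3 is a serine-threonine kinase of the receptor-interacting protein family. It joins RIPK1 through a shared short interaction motif and phosphorylates MLKL, a protein that then opens the plasma membrane, a form of cell death known as necroptosis. Necroptotic signalling is held back by caspase-8 with FADD, and it is engaged by death receptors, by Toll-like receptors and by ZBP1, a sensor of viral nucleic acid. RIPK3 has also been tied to the production of cytokines and of interferon, the secreted signal that turns on antiviral genes through STAT2 and IRF9.

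RIPK3 stood at 61.4 RPKM in the RIPK3 library, with 3167 reads, against 0 reads in the Vector library. Taking 3 reads as the floor in Vector, RIPK3 was at least 954-fold higher, and the lower limit of the two-sided interval was 775-fold. The other libraries held 0 to 2 reads of RIPK3, so the label of the RIPK3 library matches the gene it was given. The table gives 1 total per gene and does not separate transcripts of the plasmid from those of the cell's own gene. Library totals ran from 17248974 to 19512241 reads, with 19085785 for RIPK3 and 17248974 for Vector. Of 12 markers of embryonal cells, 10 passed the filter, among them SOX2 at 68.5 RPKM in RIPK3 and 149 RPKM in Vector. NANOG was at 0.225 RPKM in RIPK3 and 0.221 RPKM in Vector, and TDGF1 was listed at 0 in both, so these 2 markers of the embryonal state were near or at 0.

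With RIPK3, 175 of 11880 genes were at least 2-fold higher (1.47%) and 69 were at least 2-fold lower (0.581%), together 2.05%. RIPK3 was the highest of the 6 libraries for 110 of the 175 and the lowest for 29 of the 69, beside 11.9% and 7.06% of all genes. Since the 175 and 69 were chosen by RIPK3 minus Vector, these shares follow in part from that choice and are a description only. The middle of the distribution hardly moved, with a median difference of 0.02 over all 11880 genes and 5th and 95th percentiles of -0.51 and 0.63. Protein-coding genes made up 153 of the 175 higher genes and 31 of the 69 lower genes, whereas small RNAs made up 13 and 38. For 164 of the 175 higher genes and 55 of the 69 lower genes the counting interval of the ratio left out 1. The same was true of 8149 of all 11880 genes, so for most genes the 2 libraries differed by more than counting error, and none of these values measures the variation between cultures. Just inside the threshold stood SPATA13, IFIH1 and ITPRIPL2 at 1.01, 1.003 and 1.001, and just outside it TRIB3, SSC5D and GPC1 at 0.999, 0.995 and 0.989. On the lower side, ACSM3, LIMCH1 and FGFR2 stood just inside at -1.01, -1.01 and -1.02, and the small RNAs SNORD58C and SNORD18C just outside at -0.999 and -0.9998.

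**Figure D1:**
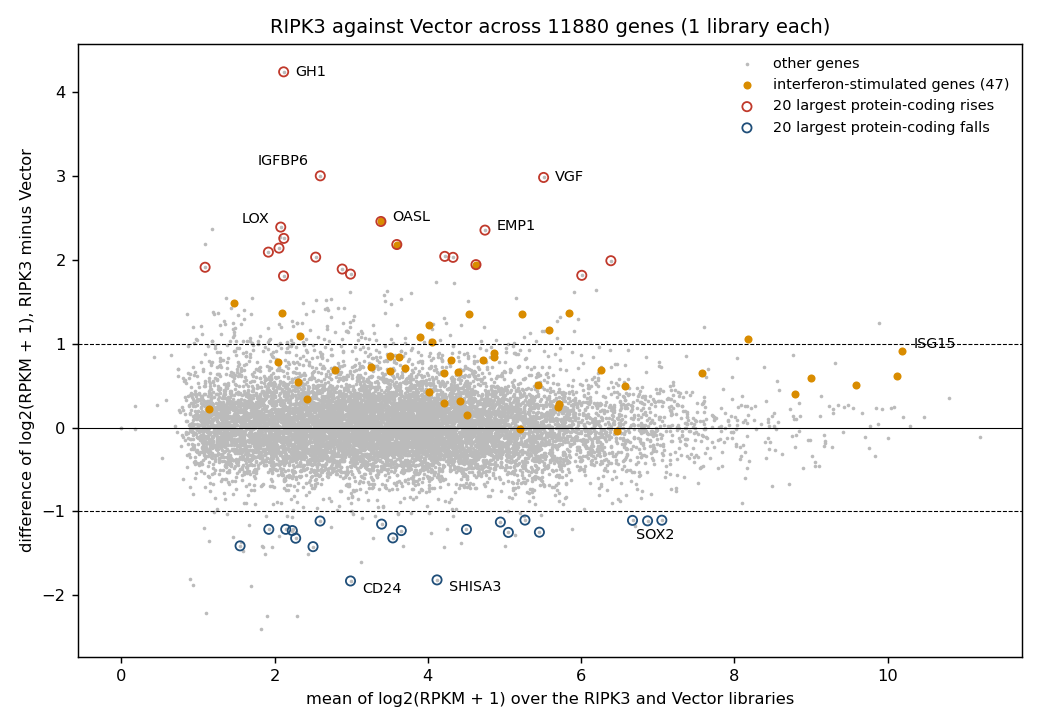
Each point is 1 of 11880 genes, with the mean of log2(RPKM + 1) over the RIPK3 and Vector libraries on the x axis and the difference of log2(RPKM + 1), RIPK3 minus Vector, on the y axis. Dashed lines mark the 2-fold threshold, filled points the 47 interferon-stimulated genes, and rings the 20 largest protein-coding rises and falls. GH1 stands highest at 4.24, and 45 of the 47 filled points lie above 0.

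The largest difference in the table was that of GH1, which encodes pituitary growth hormone. GH1 had 560 reads and 17.9 RPKM in the RIPK3 library, against 0 reads in the Vector library. It had 0 reads in RIPK2, RIPK4 and Wnt3a as well, and 28 reads with 0.874 RPKM in RIPK1. Set against 3 reads in Vector, RIPK3 was thus at least 169-fold higher, with a two-sided lower limit of 137-fold. GH1 was also the 1 gene of 11880 that stood at least 2-fold above each of the other 5 libraries. It was under 1 RPKM in each of those 5 and passed the filter through its RIPK3 value alone, so this standing is a description only. Its neighbours in the growth hormone cluster did not share this level: GH2 had 0.0754 RPKM in RIPK3 and 0.0835 RPKM in Vector, with 2 reads each, and CSH1, CSH2 and CSHL1 were listed at 0 in both. Which stretch of GH1 the reads cover, and whether they come from the chromosome or from plasmid, was not tested, since the table holds gene totals only.

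Several of the other 19 among the 20 largest protein-coding rises encode secreted or surface proteins. IGFBP6, a secreted protein that binds insulin-like growth factors with a preference for IGF2, had 16.1 RPKM in RIPK3, 15.8 in RIPK2, 1.33 in RIPK1, 2.77 in RIPK4, 2.18 in Wnt3a and 1.14 in Vector. RIPK3 and RIPK2 stood apart from the other 4 libraries, and the ratio of RIPK3 to Vector was 14.1 (8.89 to 23.8), from 297 and 19 reads. VGF, the precursor of several neuropeptides, had 127 RPKM in RIPK3, 99.9 in RIPK2, 7.11 in RIPK1, 17.6 in RIPK4, 13.7 in Wnt3a and 15.2 in Vector. Here RIPK3 was the highest library, 8.34-fold above Vector (7.70 to 9.04). The neuropeptide precursor GAL (galanin) stood at 39.6 RPKM in RIPK3 and 8.95 RPKM in Vector, and PTPRN, a membrane protein of secretory granules, at 7.12 and 1.32 RPKM. Other members of the granin and secretory group did not share these rises: CPE, a peptide-processing enzyme, had 59.9 RPKM in RIPK3 and 81.4 RPKM in Vector, and SCG3 had 3.01 and 4.78 RPKM. EMP1, a small membrane protein with 4 spans, had 59.6 RPKM in RIPK3, 56.7 in RIPK2, 6.22 in RIPK1, 9.75 in RIPK4, 9.36 in Wnt3a and 10.9 in Vector. It showed the same split of the libraries, with a ratio of 5.48 (5.20 to 5.79). Of its 3 relatives, EMP3 had 78.2 and 47.6 RPKM, PMP22 had 106 and 87.4 RPKM, and EMP2 had 9.42 and 12.3 RPKM, in RIPK3 and in Vector.

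The other large rises included transcription factors, calcium-binding proteins and a potassium channel. BHLHE40, a basic helix-loop-helix repressor of the circadian clock, had 36.8 RPKM in RIPK3 and 8.20 RPKM in Vector. SOX14, a SOX family factor, had 13.2 RPKM in RIPK3 and 2.83 RPKM in Vector. The calcium-binding S100A16 stood at 166 RPKM in RIPK3 and 41.1 RPKM in Vector, and S100A3 at 13.99 and 3.22 RPKM. KCNF1, a subunit of voltage-gated potassium channels, rested on 137 reads in RIPK3 and 4 in Vector, a ratio of 31.0 with a wide interval of 11.8 to 115. MYEOV had 7.74 RPKM in RIPK3 and 0.985 RPKM in Vector, and the ubiquitin ligase gene MARCH4 had 6.81 and 0.834 RPKM. In the RIPK2 library these 2 genes were at 8.38 and 7.11 RPKM, and in RIPK1 at 0.387 and 0.668 RPKM.

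Interferon-stimulated genes gave more called genes than any other list. Of 70 listed, 47 passed the filter. Among these 14 were at least 2-fold higher with RIPK3 and none lower, beside 1.47% and 0.581% of all genes, and the median difference was 0.71 beside 0.02. Above 0 were 45 of the 47, and the 2 below it, IFITM2 and PNPT1, stood at -0.04 and -0.02. RIPK3 was the highest of the 6 libraries for 38 of the 47, beside 11.9% of all genes. The summed level of the 47 genes was 6975 RPKM in RIPK3 and 4317 RPKM in Vector. Libraries with the same amount of plasmid differed widely in these genes. Against the same Vector library the median was 0.56 in RIPK2, near that of RIPK3, -0.0002 in RIPK4 and -1.28 in RIPK1. With the trend of the differences over transcript GC content removed, 13 of the 47 were called, and these were not all among the 14. UBA7, USP18 and IFI27 were no longer called, and other members passed that had not done so before.

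The OAS enzymes, which make an oligoadenylate signal when they meet double-stranded RNA, held 4 of these 14 genes. OASL, a relative without that activity, had 23.5 RPKM in RIPK3, 25.8 in RIPK2, 0.845 in RIPK1, 9.21 in RIPK4, 2.61 in Wnt3a and 3.47 in Vector. RIPK3 thus stood 6.77-fold above Vector (5.88 to 7.84) and below RIPK2. OAS2 had 58.9 RPKM in RIPK3 and 22.5 RPKM in Vector, OAS3 had 91.1 and 34.8 RPKM, and OAS1 had 70.9 and 31.2 RPKM, ratios of 2.62, 2.62 and 2.27.

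The IFIT proteins, which bind foreign RNA that lacks a host cap, spread over a range of sizes. IFIT2 had 24.7 RPKM in RIPK3 and 4.68 RPKM in Vector, a ratio of 5.29 (4.66 to 6.02). IFIT3, its binding partner, had 47.5 RPKM in RIPK3, 41.0 in RIPK2, 2.78 in RIPK1, 10.4 in RIPK4, 2.97 in Wnt3a and 11.6 in Vector. IFIT1 was the most abundant at 239 RPKM in RIPK3 and 152 RPKM in Vector, yet its ratio of 1.57 (1.54 to 1.61) was the smallest of the 4 IFIT genes kept. The interferon-stimulated genes more abundant than IFIT1 in RIPK3 had ratios from 1.32 to 2.08. The lowest was that of BST2, with 510 RPKM in RIPK3 and 386 RPKM in Vector. IFITM3 had 913 RPKM in RIPK3 and 642 RPKM in Vector, a ratio of 1.42. ISG15, a ubiquitin-like protein that is joined to other proteins, had 1603 RPKM in RIPK3 and 849 RPKM in Vector, a ratio of 1.89. IFI6 had 1377 RPKM in RIPK3 and 896 RPKM in Vector, a ratio of 1.54. IFI27 had 415 RPKM in RIPK3 and 199.6 RPKM in Vector, a ratio of 2.08.

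All 6 genes that make, attach or remove ISG15 stood above Vector, and 2 were called, beside 1.47% of all genes. UBA7, the enzyme that activates ISG15, had 6.38 RPKM in RIPK3 and 2.47 RPKM in Vector, a ratio of 2.58 (2.13 to 3.15). USP18, which cleaves ISG15 from its targets and also dampens the interferon receptor, had 22.6 RPKM in RIPK3 and 10.7 RPKM in Vector. The ligases HERC5 and HERC6 had 50.8 and 15.4 RPKM in RIPK3, against 35.3 and 8.19 RPKM in Vector. RIPK3 was the highest library for all 6. Both calls ended with the GC trend removed, at 0.88 for UBA7 and 0.92 for USP18, and so did that of IFI27, at 0.98. PARP10, an ADP-ribosyltransferase, had 36.1 RPKM in RIPK3 and 13.5 RPKM in Vector, and SP110, a nuclear body protein, had 20.7 and 9.25 RPKM. CMPK2, a mitochondrial nucleotide kinase, had 3.62 RPKM in RIPK3 and 0.652 RPKM in Vector, a ratio of 5.56 (4.06 to 7.77), and was at 2.33 RPKM in RIPK2. Over the libraries other than RIPK3 its mean was under 1 RPKM, so CMPK2 passed the filter through its RIPK3 value. RSAD2, its neighbour and the gene of the antiviral enzyme viperin, was below the filter: it had 84 reads and 0.835 RPKM in RIPK3 against 0 reads in Vector, at least 25.3-fold higher when Vector is set to 3 reads. Many classical members were hardly expressed in either library. MX1, an antiviral GTPase, stood at 0.349 RPKM in RIPK3 and 0.225 RPKM in Vector, and the chemokine CXCL10 at 0.134 and 0.0494 RPKM. None of the 7 GTPases listed and none of the 3 chemokines listed passed the filter.

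**Figure D2:**
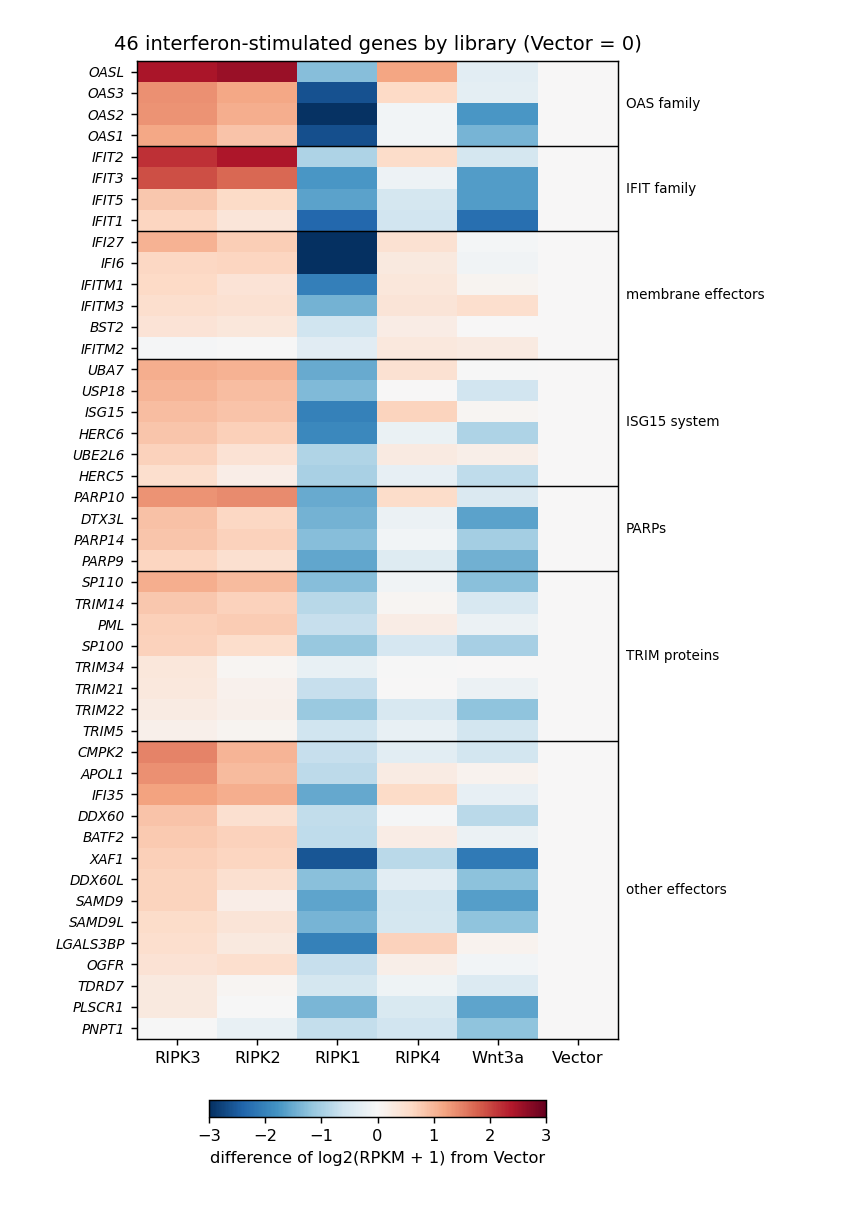
Rows are 46 of the 47 interferon-stimulated genes kept, grouped by role, and columns are the 6 libraries with Vector last. Colour gives the difference of log2(RPKM + 1) from Vector, with the scale ending at 3 in both directions, so that larger differences in RIPK1 share its darkest blue. The RIPK3 column is red for all genes but IFITM2 and PNPT1, which are close to white. RIPK2 is above Vector for most genes too, with a median of 0.56 over the 47, and the RIPK1 column is blue for nearly all genes.

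Promoter sequences are printed for a few of these genes because many of the group, though not all, hold a short DNA element that was not used to choose it. Many interferon-stimulated genes carry the interferon-stimulated response element, bound by a complex with STAT2 and IRF9. Its core was searched as 2 copies of GAAA with any 2 bases between them, on both strands in the 250 bases before each start in RefSeq (GRCh38.p14), and overlapping matches were allowed. The core was found in 839 of 27305 promoters in the table (3.07%) and in 211 of 9569 promoters of the genes compared (2.21%). Of the 47 interferon-stimulated genes kept, 36 had a promoter in the table, and 21 of these held the core (58.3%). Among those called higher, OAS1, CMPK2, IFI35 and SP110 had a promoter without it, whereas IFIT3, OAS3 and IFI27 had one with it. The promoters printed below all hold 2 matches, and of their genes IFIT1 and ISG15 were not called. Of the 175 genes at least 2-fold higher, 113 had a promoter in the table and 7 held it (6.19%). Most genes in the higher set thus lack these letters in that window, and a match is a description of sequence and not evidence of binding. The 160 bases before the start are shown 5′ to 3′ on the gene's strand, with the core in capitals, which on the opposite strand reads as 2 copies of TTTC. IFIT3 (chr10:89327837-89327996, plus strand) holds it at -156 and -122 from the start. IFIT1 (chr10:89392463-89392622, plus strand) holds it at -116 and -103. OAS3 (chr12:112938314-112938473, plus strand) holds it at -143 and -12. IFI27 (chr14:94110576-94110735, plus strand) holds it at -108 and -95. ISG15 (chr1:1013337-1013496, plus strand) holds 2 overlapping copies at -113 and -107.
IFIT3: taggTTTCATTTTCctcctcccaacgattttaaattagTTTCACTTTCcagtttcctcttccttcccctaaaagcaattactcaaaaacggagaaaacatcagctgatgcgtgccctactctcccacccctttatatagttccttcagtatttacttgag
IFIT1: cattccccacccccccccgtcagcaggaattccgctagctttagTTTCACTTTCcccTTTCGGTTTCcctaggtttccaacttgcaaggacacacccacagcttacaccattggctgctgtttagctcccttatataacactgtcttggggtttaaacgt
OAS3: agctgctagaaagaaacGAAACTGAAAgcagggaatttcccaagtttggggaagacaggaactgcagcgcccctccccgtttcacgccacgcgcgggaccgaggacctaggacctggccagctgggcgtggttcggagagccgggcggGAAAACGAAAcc
IFI27: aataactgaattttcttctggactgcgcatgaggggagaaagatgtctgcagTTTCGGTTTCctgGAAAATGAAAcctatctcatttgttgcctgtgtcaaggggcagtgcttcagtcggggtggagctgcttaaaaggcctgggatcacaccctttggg
ISG15: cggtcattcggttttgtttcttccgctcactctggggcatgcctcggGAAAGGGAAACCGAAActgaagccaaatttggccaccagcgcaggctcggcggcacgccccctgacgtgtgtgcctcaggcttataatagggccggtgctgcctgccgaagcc

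The promoter of VGF is shown as a contrast, since VGF was among the 3 largest rises and its start is known for another element. VGF (chr7:101165570-101165729, minus strand) had no core of the interferon element in these bases. It held the cyclic AMP response element, searched as TGACGTCA, whose reverse complement is the same sequence, at -79 (capitals). That element was found in 482 of 27305 promoters (1.77%), in 294 of 9569 promoters of the genes compared (3.07%) and in 3 of the 113 promoters of the higher genes (2.65%). It was in none of the 36 promoters of interferon-stimulated genes.
VGF: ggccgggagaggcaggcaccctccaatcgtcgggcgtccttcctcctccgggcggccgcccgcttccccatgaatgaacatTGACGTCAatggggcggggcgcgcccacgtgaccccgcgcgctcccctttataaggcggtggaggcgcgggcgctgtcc

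Upstream of these targets, interferon ligands were at low read counts and their receptors stood close to Vector. IL29, the type III interferon lambda-1, had 31 reads in RIPK3 and 2 reads in Vector, or 1.90 and 0.136 RPKM, a ratio of 14.01 whose interval ran from 3.56 to 121. The RIPK2 library was higher still, at 3.27 RPKM. Over the libraries other than RIPK3 the mean of IL29 was under 1 RPKM, so it passed the filter through its RIPK3 value. IFNB1, interferon beta, had 17 reads in RIPK3 and 4 reads in Vector and did not pass the filter. IFNA1 and IFNG were listed at 0 in both. Of the 5 receptor chains kept none was called, and their median difference was 0.00. IFNAR1 and IFNAR2, the chains of the type I receptor, had 4.53 and 4.67 RPKM in RIPK3 against 4.53 and 4.93 RPKM in Vector. Among kinases and factors, all 11 kept were above 0 with a median of 0.29, and none was at the 2-fold threshold. IRF7, which amplifies interferon production, had 38.9 RPKM in RIPK3 and 22.3 RPKM in Vector. STAT2 had 33.8 and 22.2 RPKM and IRF9 had 35.7 and 27.1 RPKM.

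Sensors of viral RNA stood above Vector, and 1 was called, beside 1.47% of all genes. All 7 RNA sensors and their regulators kept stood above 0, with a median of 0.61. IFIH1 (MDA5), a receptor for long double-stranded RNA, had 17.4 RPKM in RIPK3, 13.2 in RIPK2, 0.876 in RIPK1, 6.45 in RIPK4, 2.61 in Wnt3a and 8.16 in Vector. DDX58 (RIG-I) had 47.2 RPKM in RIPK3 and 25.3 RPKM in Vector, a ratio of 1.86 (1.77 to 1.96). DHX58 had 2.40 and 0.978 RPKM. IKBKE, an inducible kinase of this pathway, was called at 3.44 RPKM in RIPK3 and 1.17 RPKM in Vector, whereas its relative TBK1 had 12.3 and 15.9 RPKM. The difference of IKBKE was 0.82 with the GC trend removed, under the threshold. TMEM173 (STING), the adaptor of DNA sensing, had 1.15 RPKM in RIPK3 and 1.24 RPKM in Vector.

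Antigen presentation by MHC class I showed 2 called genes among 19 kept, beside 1.47% of all genes. With the GC trend removed none of the 19 was called, and HLA-B and HLA-C stood at 0.97 and 0.85. HLA-B had 11.01 RPKM in RIPK3 and 4.25 RPKM in Vector, a ratio of 2.59 (2.42 to 2.77), and HLA-C had 27.7 and 12.4 RPKM, a ratio of 2.25 (2.14 to 2.36). HLA genes share long stretches of sequence, so reads may be split between them and their single values are uncertain. The peptide transporter TAP1 had 2.32 RPKM in RIPK3 and 0.898 RPKM in Vector. B2M, the common light chain, had 210 RPKM in RIPK3 and 173 RPKM in Vector. The list median was 0.28, and 14 of the 19 were above 0.

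Genes of the necroptosis machinery stood close to their Vector levels. RIPK1, the partner kinase, had 13.4 RPKM in RIPK3 and 12.8 RPKM in Vector, a ratio of 1.05 whose interval of 0.960 to 1.14 includes 1. MLKL, the executioner, was below the filter at 1.26 RPKM in RIPK3 and 0.96 RPKM in Vector, from 122 and 84 reads, a ratio of 1.31 (0.986 to 1.75). ZBP1 was listed at 0 in both. Of 8 necroptosis partners, 6 passed the filter, none was called and the median difference was 0.04. CASP8, the protease that restrains the pathway, had 7.68 RPKM in RIPK3 and 7.77 RPKM in Vector, and its adaptor FADD had 22.9 and 18.6 RPKM. CFLAR, which pairs with caspase-8, had 2.99 RPKM in RIPK3 and 2.24 RPKM in Vector.

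Across the whole cell death list 2 of 45 kept genes were called, both higher, beside 1.47% of all genes, and the median was 0.22. BMF, a BH3-only protein that opposes BCL2, had 3.52 RPKM in RIPK3 and 0.925 RPKM in Vector, a ratio of 3.81 (2.95 to 4.95). TLR4, the receptor for bacterial lipopolysaccharide and one route to RIPK3, had 3.92 RPKM in RIPK3, 3.27 in RIPK2, 1.38 in RIPK1, 1.32 in RIPK4, 1.22 in Wnt3a and 1.42 in Vector. All 9 receptors of the list that were kept, TLR4 among them, were above 0. TNFRSF1A, the main TNF receptor, had 29.2 RPKM in RIPK3 and 19.0 RPKM in Vector, a ratio of 1.53 (1.41 to 1.66). None of the 5 ligands passed the filter, with TNF at 0.360 RPKM in RIPK3 and 0.0972 RPKM in Vector. The pro-survival MCL1 had 113 RPKM in RIPK3 and 138 RPKM in Vector, BCL2L1 had 18.3 and 23.3 RPKM, and the death-promoting BBC3 had 10.4 and 6.67 RPKM. TRAF5, a TNF receptor adaptor, was the lowest member at -0.64, with 10.6 RPKM in RIPK3 and 17.04 RPKM in Vector.

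In the NF-kB list 3 of 41 kept genes were called higher and none lower, beside 1.47% and 0.581% of all genes, with a median of 0.25. All 3 encode secreted proteins. CCL5, a chemokine that interferon also induces, had 199 reads and 8.50 RPKM in RIPK3 against 21 reads and 0.992 RPKM in Vector, a ratio of 8.56 (5.45 to 14.1). IL11, a cytokine of the interleukin-6 family, had 10.7 RPKM in RIPK3 and 1.87 RPKM in Vector, and PLAU, the urokinase protease, had 73.6 and 34.8 RPKM. PLAU was under the threshold with the GC trend removed, at 0.93. Classical feedback inhibitors were nearer to Vector: NFKBIA had 13.9 RPKM in RIPK3 and 8.11 RPKM in Vector, and TNFAIP3 had 2.59 and 1.81 RPKM. The 12 kinases and adaptors had a median of -0.03 and none was called. SOD2, another known target, was the lowest of the list at 9.87 RPKM in RIPK3 and 14.03 RPKM in Vector.

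Genes downstream of growth factor signalling showed 2 called members among 45, both AP-1 subunits, beside 1.47% of all genes called higher. FOSL2 had 7.46 RPKM in RIPK3 and 2.32 RPKM in Vector, a ratio of 3.22 (2.84 to 3.65), and JUNB had 7.22 and 2.67 RPKM, a ratio of 2.70 (2.11 to 3.49). With the GC trend removed FOSL2 was still called, and JUNB at 0.90 was not. JUN had 35.6 RPKM in RIPK3 and 21.2 RPKM in Vector. Feedback inhibitors of ERK had a median of 0.42 over 13 genes, with SPRY4 at 48.1 RPKM in RIPK3 and 25.7 RPKM in Vector and DUSP5 at 16.7 and 8.56 RPKM. Targets of YAP and SRF had a median of -0.07, and the matricellular members CTGF and CYR61 lay below it. CTGF had 46.0 RPKM in RIPK3 and 91.1 RPKM in Vector, and CYR61 had 40.5 and 64.5 RPKM. At -0.97 and -0.66 neither was at the 2-fold threshold. With the GC trend removed 1 of the 9 YAP and SRF targets kept was called lower, and 3 of the 45 genes were called higher.

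TGF-beta and BMP genes included 9 called members among 50, all higher, beside 1.47% of all genes, around a list median of 0.24. With the GC trend removed 5 were called, and ENG, GDF15, JUNB and NOG, at 0.99, 0.98, 0.90 and 0.86, were not. TGFB1, the ligand, had 104 RPKM in RIPK3 and 33.5 RPKM in Vector, a ratio of 3.11 (2.93 to 3.31). Among targets, TGFBI, a secreted adhesion protein, had 119.8 RPKM in RIPK3 and 33.4 RPKM in Vector. ID3, a dominant-negative factor induced by BMP, had 35.7 RPKM in RIPK3 and 10.1 RPKM in Vector, while its relatives ID2 and ID4 had 15.4 and 41.1 RPKM in RIPK3 against 20.5 and 54.8 RPKM in Vector. ENG, a co-receptor, had 11.2 RPKM in RIPK3 and 4.14 RPKM in Vector. The RIPK2 library was close to RIPK3 for TGFB1, TGFBI, ID3 and ENG, at 102, 124, 37.2 and 11.8 RPKM. The list median of RIPK2 against Vector was 0.29. The signalling receptors TGFBR1 and TGFBR2 had 16.3 and 3.61 RPKM in RIPK3 against 18.4 and 3.24 RPKM in Vector. Antagonists went both ways: NOG had 2.99 RPKM in RIPK3 and 0.889 RPKM in Vector, and FST had 227 and 345 RPKM.

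Extracellular matrix genes were the largest list, with 11 of 76 kept members called higher, 1 called lower and a median of 0.44, beside 1.47% and 0.581% of all genes. With the GC trend removed 8 were called higher and 2 lower. Against the mean of the other 5 libraries the list median was 0.15. LOX, which crosslinks collagen and elastin, led them with 8.68 RPKM in RIPK3, 9.26 in RIPK2, 0.345 in RIPK1, 0.708 in RIPK4, 0.648 in Wnt3a and 0.849 in Vector. From 690 reads in RIPK3 and 61 in Vector the ratio was 10.2 (7.86 to 13.5). Its relatives LOXL1 and LOXL2 had 17.97 and 98.8 RPKM in RIPK3 against 14.2 and 73.5 RPKM in Vector. Fibrillar collagens were all above 0, with COL1A1 at 83.0 RPKM in RIPK3 and 32.6 RPKM in Vector and COL5A1 at 59.8 and 28.8 RPKM. COL8A1, a short-chain collagen of vessel walls, had 3.39 RPKM in RIPK3 and 0.509 RPKM in Vector. The glycoproteins TNC and LAMA4 had 37.8 and 28.2 RPKM in RIPK3 against 12.6 and 10.8 RPKM in Vector. MMP14, a membrane-bound collagenase, had 78.8 RPKM in RIPK3 and 32.2 RPKM in Vector, and ITGA3, a laminin-binding integrin chain, had 59.5 and 19.8 RPKM. POSTN, a glycoprotein that binds several of these, was the called fall, at 27.5 RPKM in RIPK3 and 66.7 RPKM in Vector, a ratio of 0.41.

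Markers of other kinds of cell were read beside the matrix genes. Of 10 fibroblast markers, 6 passed the filter, with a summed level of 293 RPKM in RIPK3, 182 RPKM in Vector and 155 to 293 RPKM over the 6 libraries. Of these 6, COL1A1 was called higher, beside 1.47% of all genes, 5 were above 0 and the median was 0.50. The markers DCN, LUM and COL3A1 did not pass, at 0, 0 and 0.0382 RPKM in RIPK3 and 0, 0.0274 and 0.0317 RPKM in Vector. Of 10 endothelial markers, 6 passed, with a sum of 115 RPKM in RIPK3, 74.2 RPKM in Vector and 74.2 to 115 RPKM over the 6 libraries. ESAM and TIE1 were called higher, beside 1.47% of all genes, at 6.31 and 41.5 RPKM in RIPK3 against 2.03 and 19.7 RPKM in Vector. TIE1 was at 0.80, under the threshold, with the GC trend removed. The median of the 6 endothelial markers kept was 0.87, and 5 of them were above 0. ERG and EMCN were listed at 0 in both, and VWF was at 0.0849 and 0.0627 RPKM. Of 8 blood cell markers CD68 alone passed, at 4.80 RPKM in RIPK3 and 1.94 RPKM in Vector, with PTPRC at 0 and 0.00849 RPKM. Of 8 trophoblast markers 2 passed and none was called, with CGA and KRT7 listed at 0 in both. The part of such cells in the matrix values was not tested.

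Genes of the stem cell state and neural transcription factors lay more often below 0 than above it, where 5673 of all 11880 genes lay below 0. Of 20 pluripotency genes kept, 12 were below 0, with a median of -0.16. Among them 1 was called higher (GAL) and 2 lower, beside 1.47% and 0.581% of all genes. Against the same Vector library the list median was -0.32 in RIPK2, -0.36 in Wnt3a, -0.09 in RIPK4 and -0.01 in RIPK1. With the mean of the other 5 libraries as the baseline, the list median in RIPK3 was -0.01. SOX2, a core factor of pluripotent and neural progenitor cells, had 68.5 RPKM in RIPK3, 63.2 in RIPK2, 133 in RIPK1, 78.1 in RIPK4, 48.1 in Wnt3a and 149 in Vector. Vector and RIPK1 were the 2 high libraries, and RIPK3 was 2.17-fold lower than Vector (2.08 to 2.26). CD24, a surface glycoprotein, had 3.22 RPKM in RIPK3, 2.33 in RIPK2, 16.4 in RIPK1, 10.9 in RIPK4, 7.33 in Wnt3a and 13.99 in Vector, 4.34-fold lower in RIPK3 than in Vector (3.79 to 4.99). Close copies of CD24 in the genome leave its value uncertain. The partner factor POU5F1 stood above Vector, with 17.2 RPKM in RIPK3 and 13.0 RPKM in Vector, and SALL4 had 40.4 and 37.7 RPKM. POU5F1 has processed copies in the genome, so its value is uncertain. Of 28 genes in the neural list 18 were below 0, with a median of -0.15. In this list VGF was called higher and 2 genes lower, beside 1.47% and 0.581% of all genes. Its roles differed: transcription factors had a median of -0.40, with 10 of 13 below 0, whereas genes of the cytoskeleton and of adhesion had a median of 0.11, with 6 of 11 above 0. Of the adhesion and cytoskeleton genes TUBB3, a neuronal tubulin, had 22.9 RPKM in RIPK3 and 12.5 RPKM in Vector. FEZF1, a forebrain factor, had 0.797 RPKM in RIPK3 and 3.77 RPKM in Vector, from 32 and 137 reads, and HES3, a repressor of the HES family, had 1.91 and 5.74 RPKM. ZIC2 had 61.5 RPKM in RIPK3 and 104 RPKM in Vector.

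The remaining falls were of mixed function. SHISA3, a relative of the frog protein Shisa that retains Wnt and FGF receptors inside the cell, had 8.27 RPKM in RIPK3, 6.76 in RIPK2, 28.6 in RIPK1, 13.3 in RIPK4, 1.73 in Wnt3a and 31.6 in Vector. In this gene the Wnt3a library, and not RIPK3, was the lowest. EPHA3, a receptor tyrosine kinase for ephrins, had 6.39 RPKM in RIPK3 and 17.4 RPKM in Vector, while EPHA2 had 23.1 and 12.8 RPKM. POLR3G, the subunit of RNA polymerase III found in stem cells, had 20.5 RPKM in RIPK3 and 50.2 RPKM in Vector, and SSB, the La protein that binds the ends of its transcripts, had 78.5 and 171 RPKM. In the list of polymerase III subunits and La these were the 2 genes called lower of 12 kept, beside 0.581% of all genes. The other 10 genes of that list had differences between -0.34 and 0.27. PIM1, a survival kinase, had 13.9 RPKM in RIPK3, 13.8 in RIPK2, 26.4 in RIPK1, 41.0 in RIPK4, 39.6 in Wnt3a and 33.6 in Vector. Set against the mean of log2(RPKM + 1) of the other 5 libraries, all 20 falls lay below 0, and 2 of the 20 were still at least 2-fold lower, CD24 and PIM1. All 20 of the largest rises were at least 2-fold higher on that baseline as well. Vector is among those 5 libraries and both sets were chosen by RIPK3 minus Vector, so these counts follow in part from that choice.

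**Figure D3:**
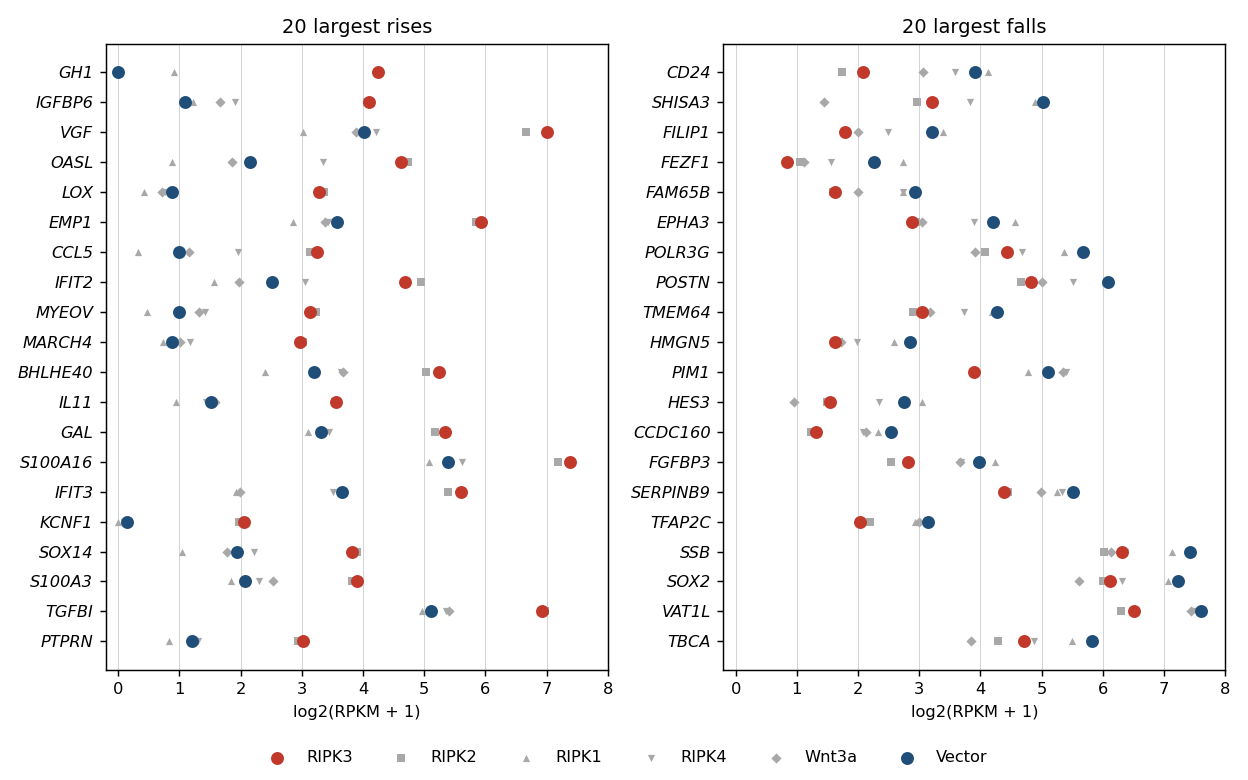
The 20 largest protein-coding rises (left) and falls (right) among genes with at least 20 reads over the 2 libraries, with log2(RPKM + 1) on the x axis. Large red points are RIPK3, large blue points Vector and grey points the other 4 libraries. In the left panel RIPK3 and RIPK2 stand apart from the others for all genes but GH1, whereas in the right panel RIPK4 and Wnt3a often lie between RIPK3 and Vector.

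Metabolic and proliferation genes differed less, and none of those kept reached the threshold in the sterol and cell cycle lists. Of 20 sterol synthesis genes 17 were below 0, with a median of -0.31. HMGCS1 had 30.3 RPKM in RIPK3 and 50.9 RPKM in Vector, SQLE had 17.3 and 29.2 RPKM, and CYP51A1 had 8.68 and 16.3 RPKM. Of 22 mitosis genes 19 were below 0, with a median of -0.29. The mitotic kinase CDK1 had 23.9 RPKM in RIPK3 and 36.4 RPKM in Vector, yet MKI67 had 25.5 and 24.4 RPKM. The inhibitor CDKN1A had 22.5 RPKM in RIPK3 and 13.9 RPKM in Vector. Stress genes of the unfolded protein and amino acid responses had a median of 0.23 over 53 genes with none called. The factor ATF4 had 84.4 RPKM in RIPK3 and 88.2 RPKM in Vector, while its targets TRIB3 and DDIT4 had 5.56 and 27.2 RPKM in RIPK3 against 2.28 and 13.4 RPKM in Vector. Of 32 genes kept in the Wnt list MSX1 was called higher, at 18.2 RPKM in RIPK3 and 5.90 RPKM in Vector, and SHISA3 lower. That is 1 gene in each direction, beside 1.47% and 0.581% of all genes. The feedback gene AXIN2 had 16.7 RPKM in RIPK3 and 14.7 RPKM in Vector. The 14 housekeeping genes had a median of -0.04.

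Other lists gave few calls. Of 26 targets of p53 kept, GDF15, a secreted stress factor, was called higher, at 24.6 RPKM in RIPK3 and 9.90 RPKM in Vector, and the median was 0.20. That is 1 gene, beside 1.47% of all genes, and with the GC trend removed none of the 26 was called. Of 10 genes of the insulin-like growth factor system IGFBP6 was the called one, beside 1.47% of all genes. IGFBP7 had 47.5 RPKM in RIPK3 and 23.8 RPKM in Vector, and the receptor IGF1R had 30.0 and 16.1 RPKM. None of the 15 heat shock genes was called, nor any of the 16 genes of epithelial and mesenchymal state, with medians of -0.06 and 0.29.

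**Figure D4:**
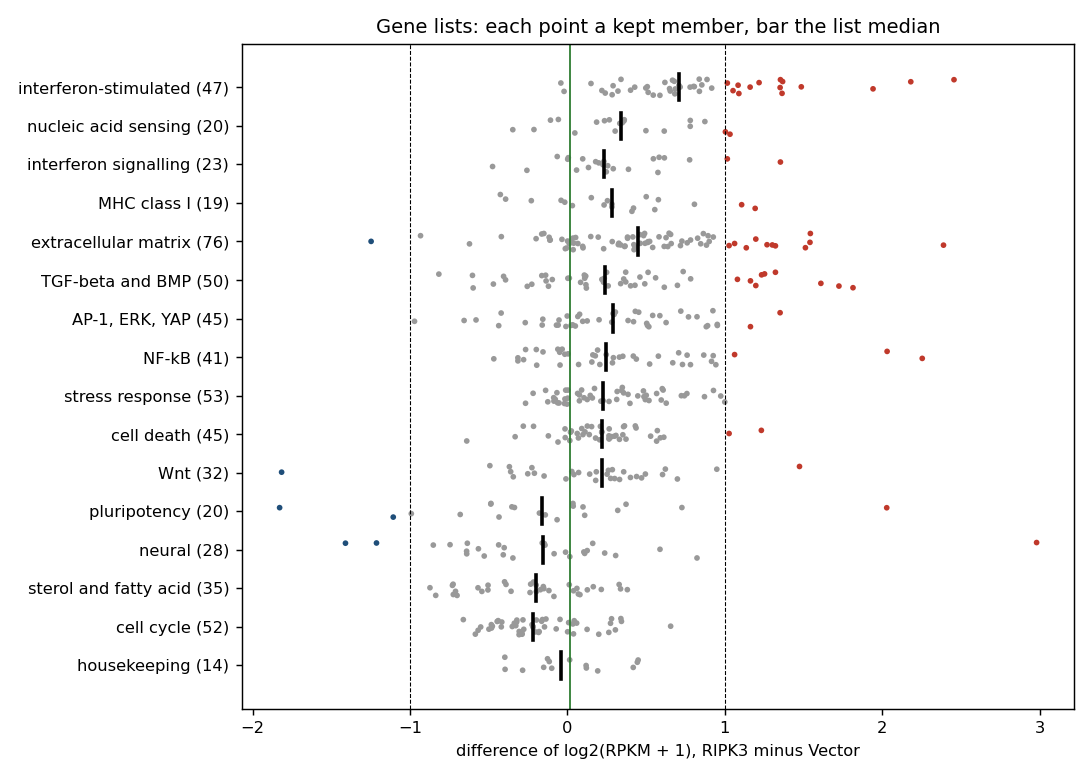
Each point is a kept member of a list, placed by its difference of log2(RPKM + 1), RIPK3 minus Vector, with red for members at least 2-fold higher and blue for those at least 2-fold lower. Black bars are list medians, the green line is the median of all 11880 genes (0.02), and a gene may stand in several lists. The interferon-stimulated genes have the highest median of the lists drawn, 0.71, and the cell cycle genes the lowest, -0.22.

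RIPK3 was also set directly against RIPK2, the library that stood beside it in the plot of the largest rises. With RIPK2 itself set aside, 4 of 11879 genes were at least 2-fold higher in RIPK3 (0.0337%) and 38 at least 2-fold lower (0.32%). The 4 higher ones were GH1, CDR1 and 2 small RNAs. CDR1 had 6.53 RPKM in RIPK3 and 2.12 RPKM in RIPK2, and it was at 6.47 RPKM in RIPK4 as well. Small RNAs made up 22 of the 38 lower ones, pseudogenes 11 and a long noncoding RNA 1. The protein-coding genes among them were BSX, PABPC3, EDARADD and CSNK2A1P, with 1.12, 3.82, 7.68 and 2.85 RPKM in RIPK3 against 4.44, 9.55, 16.9 and 6.91 RPKM in RIPK2. PABPC3 and CSNK2A1P are close copies of expressed genes, which leaves their values uncertain. Against Vector, with which both are compared, RIPK3 had 1.47% of genes higher and 0.581% lower, and RIPK2 had 1.59% higher and 0.699% lower. The median of the interferon-stimulated genes was 0.16 above RIPK2 in this direct comparison, and those of the TGF-beta and matrix lists were 0.02 and 0.03. The nucleic acid sensing, p53 and MHC class I lists had medians of 0.17, 0.16 and 0.15, so this level was not particular to the interferon-stimulated genes. No GC trend was removed from this comparison. Set against RIPK1, which also took 8 µg of plasmid, RIPK3 had 284 of 11879 genes at least 2-fold higher (2.39%) and 47 lower (0.396%), and the interferon-stimulated genes had a median difference of 2.17. RIPK1 itself had 0.295% of genes higher and 0.547% lower than Vector.

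Transcript GC content moved with the difference between RIPK3 and Vector. Across 11778 genes with a GC value the Spearman coefficient was 0.544, and in 5 equal groups of genes by GC content the median difference was 0.25 in the GC-richest, 0.02 in the middle and -0.23 in the GC-poorest group. Genes share a library here, so the coefficient is a description. Against RIPK2 the coefficient was -0.519 and against RIPK1 0.582. With the trend removed by a smooth fit, 110 of the 165 higher genes with a GC value and 47 of the 63 lower ones were still at least 2-fold apart. The 20 largest rises all remained so, and 16 of the 20 largest falls did, the others being POLR3G, HMGN5, SSB and TBCA. Both sets were chosen by the size of RIPK3 minus Vector, so this follows in part from that choice. The median of the interferon-stimulated genes was 0.79 after the removal, that of the matrix genes 0.33, that of the TGF-beta list 0.24 and that of the Wnt list 0.05. The part of GC content in the remaining differences was not tested.

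**Figure D5:**
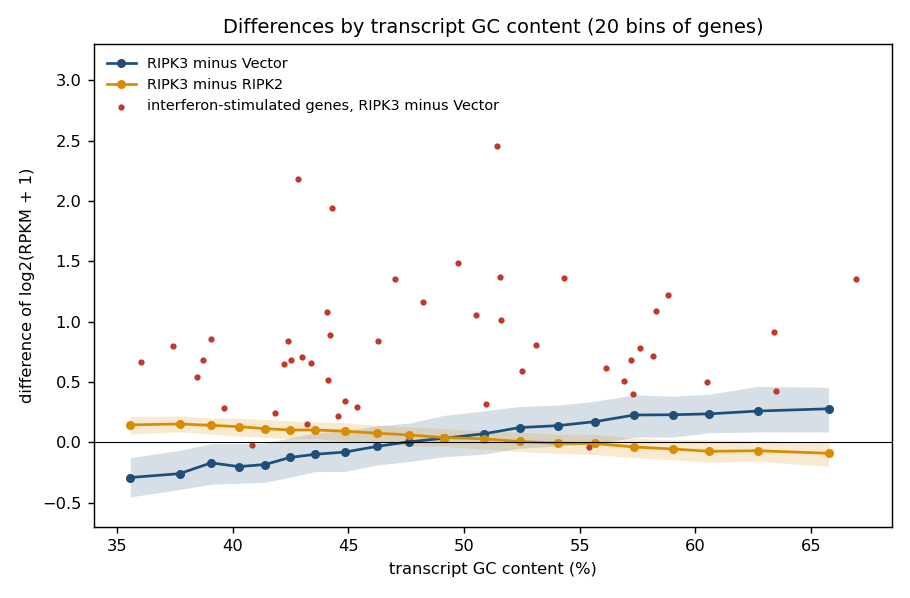
Genes were put in 20 bins of equal size by transcript GC content (x axis, percent), and the y axis gives the difference of log2(RPKM + 1). Lines join bin medians and bands span the interquartile range of a bin, blue for RIPK3 minus Vector and orange for RIPK3 minus RIPK2, while red points are single interferon-stimulated genes, RIPK3 minus Vector. The 2 lines slope in opposite directions, and the red points lie above the blue line at nearly all GC contents.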

How the data were processed

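The series holds RNA sequencing of 6 PA-1 libraries, and the RIPK3 and Vector libraries were compared. The deposited table gives the authors' RPKM per gene, one library a column, per the file headers. GSNAP, DESeq and hg19 are named in the submitters' processing notes, and how each was used is not given in the sources used here. Columns were matched to samples by title.

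Differences were computed as log2(RPKM + 1) with a pseudocount of 1, over genes with a mean of at least 1 RPKM, in Python 3.11.15 (numpy 2.4.6, pandas 2.3.3, scipy 1.17.1, statsmodels 0.14.6). No test was run, since each group is 1 library. A GC trend was fitted by lowess with a span of 0.3. Read numbers behind the deposited RPKM were recovered by finding the library totals and the gene lengths (15 to 30000 bases) that turn all 6 values of a gene into whole numbers of reads, allowing for rounding to 5 significant digits. This solved 88.2% of 20494 genes and 11869 of the 11881 kept (RIPK3 included), at a median length ratio of 0.993 to GENCODE 29, which also gave GC content. The recovery was checked on simulated data. Counting intervals are exact binomial (Clopper-Pearson) 95% intervals, which treat reads as independent although no molecular identifiers were counted. The floor for a count of 0 was 3 reads, or 0.0786 RPKM in RIPK3 and 0.0870 RPKM in Vector for a transcript of 2000 bases.

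The genes and gene lists were chosen with earlier results of these data known. Named were the 20 largest rises and falls among protein-coding genes called with at least 20 reads over the 2 libraries, the cell death genes, and up to 6 members of each list by size of difference. Ligands, receptors and other members named beside them serve to show the spread of a list, and some were chosen after their values were seen. Promoters came from RefSeq (GRCh38.p14). A few genes counted in the lists are not reported here by name. The alternatives were other pseudocounts, filters, scalings and baselines.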

Additional observations from a re-analysis of the deposited data

How the results depend on the processing

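The counts of 175 higher and 69 lower genes depended on the pseudocount, the filter and the baseline. They were 299 and 116 with a pseudocount of 0.1, and 103 and 39 over genes with a mean of at least 5 RPKM. With RIPK1 as the baseline 284 were higher. Against the mean of the other 5 libraries the counts were 84 and 18. Of the lower genes, 42 had at least 20 reads on average and 31 were protein coding. The share of higher genes among those called was 71.7%, then 79.2% with at least 20 reads on average, 83.2% for protein-coding genes, 85.8% against RIPK1 and 82.4% against the mean of the other 5. Scaling by median ratios gave 161 and 77, scaling by a trimmed mean 165 and 74, and removing the GC trend 125 and 53. In none of these did the median of all genes move by as much as 0.1. None of the 20 largest rises and 20 largest falls changed direction under the alternatives that gave them a value. Since these genes were chosen by the size of their difference, this follows in part from that choice and is a description only. Under every alternative run the interferon-stimulated genes had a median above 0, from 0.63 without a filter to 2.17 against RIPK1. The heat shock median (-0.06) was 0.08 and the Wnt median (0.22) was -0.12 against the mean of the other 5 libraries. No paired analysis was possible because each group holds 1 library. Depth limits genes such as KCNF1, IL29 and IFNB1, which had 4, 2 and 4 reads in Vector.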

Other observations

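Small nucleolar RNAs, which guide chemical modification of ribosomal RNA, made up much of the lower set. Of 119 C/D box RNAs kept, 9 passed the 2-fold threshold upward and 30 downward in RIPK3 against Vector, beside 1.47% and 0.581% of all genes. Their median difference was -0.37. Of 44 H/ACA box RNAs kept, 1 was higher and 8 were lower, beside the same shares of all genes, with a median of -0.31. These rest on few reads, a median of 9 in RIPK3 and 11 in Vector for the C/D box RNAs and of 9.5 and 11 for the H/ACA box RNAs. The share of such short transcripts that a library preparation keeps was not tested.

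Calcium-binding S100 genes were looked at after their values were seen. Of 10 kept, 3 were at least 2-fold higher and none lower, beside 1.47% and 0.581% of all genes, with a median difference of 0.22. S100A2 had 9.82 RPKM in RIPK3 and 2.78 RPKM in Vector, beside S100A16 and S100A3 in the report. S100A4, a more abundant member, had 486 RPKM in RIPK3 and 442 RPKM in Vector. Genes of oxidative stress and protein turnover, also chosen after their values were seen, included HMOX1, the haem-degrading enzyme, at 23.0 RPKM in RIPK3 and 6.92 RPKM in Vector. SQSTM1, an adaptor of autophagy, had 66.3 RPKM in RIPK3 and 29.2 RPKM in Vector.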
